A study of Homo sapiens with 2 samples.

Results

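The genes described here are 42 heat shock protein, co-chaperone and heat shock regulator genes, taken by symbol from a fixed list out of the 60671 genes in the deposited gene table, and all 42 were measured. They comprise 14 genes that textbook knowledge classes as induced by heat or other proteotoxic stress (inducible), 25 that are mainly expressed without stress (constitutive) and 3 regulators of the response, HSF1, HSF2 and HSBP1. The list and its classes were drawn up with earlier results of these data known. The list was named for the cytosol, but the products of 7 members belong elsewhere: those of HSPA9, HSPD1, HSPE1, DNAJA3 and TRAP1, 5 genes, work in mitochondria, that of HSPA13 in the endoplasmic reticulum and that of HSPB11 in the transport machinery of the cilium.

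C4-2B, a human castration-resistant prostate cancer cell line that the paper describes as such and the labels name as another tumour type, received vehicle or (R)-9b, an inhibitor of the kinase ACK1 (gene TNK2). The labels give 1 µM (R)-9b overnight, in the same treatment text for both samples, and the composition of the vehicle for these cultures is not given in the sources used here. Poly-A RNA was sequenced in 1 library per condition, so each comparison is between 2 libraries, no p-value is given, and an effect of (R)-9b cannot be told apart from a difference between 2 cultures or 2 libraries. Because the RNA came from whole cultures, fewer cells expressing a gene and less of its RNA per cell cannot be told apart either.

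The libraries held 65207444 gene counts (vehicle) and 57653965 ((R)-9b). Mitochondrially encoded genes took 1.49% of these counts under vehicle and 9.54% under (R)-9b, and the part of this in the ratios below was not tested, except that leaving these genes out of the scaling changed no call. All 8 prostate luminal markers checked were present in both libraries, KRT18 for example with 29024 and 23075 counts, whereas the 4 immune markers had at most 2 counts in a library, with PTPRC at 0 in both. Of 4 fibroblast and endothelial markers, COL1A1 had 1114 and 2004 counts and the others at most 14. The 42 members together held 1.32% and 1.08% of all counts.

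Heat shock proteins are molecular chaperones that bind unfolded or partly folded proteins. HSP70 proteins, driven by HSP40 (DNAJ) partners and reset by nucleotide exchange factors such as BAG and HSP110 proteins, bind short exposed stretches of a client, HSP90 acts later on near-native clients such as steroid hormone receptors and kinases, and small heat shock proteins hold unfolded chains without ATP. Under proteotoxic stress HSF1 forms trimers, binds heat shock elements in promoters and raises the inducible genes, whereas the constitutive genes are needed for folding in unstressed cells.

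A heat shock element is a run of inverted units of the form GAA and TTC with 2 bases between units, so the words GAANNTTC and TTCNNGAA, each its own reverse complement and therefore read on both strands at once, mark 2 adjacent units, and overlapping words mark 3 or more. Promoter windows from 250 bases before to 50 bases after each RefSeq transcript start (GRCh38.p14) were searched, and 36 of the 42 members had an entry, with 52 windows. A 2-unit word was found in 38.5% of the members' windows and in 13.5% of all 35116 windows, and a run of 3 units in 15.4% and 0.49%. By gene, 11 of 13 inducible members with a window held a 2-unit word and 3 held 3 units, against 8 and 5 of 21 constitutive members and neither of the 2 regulators with a window. The windows of the inducible HSPA1A and the constitutive HSPA1L overlap on opposite strands. The word of HSPA1L is the same stretch of the genome as that of HSPA1A, and it is counted for both. Only exact units were searched for, so an element with a changed base in a unit was not found as such. The inducible members with a window but no word were BAG3 and HSPH1. A match is a description of the letters only, and no binding was measured.

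Shown are the promoters of HSPA6, the gene with the largest difference among members, and of the near-identical pair HSPA1A and HSPA1B. They are shown because they differ in the exact words they hold: HSPA6 has 3 exact units in a row, and the pair has a single exact 2-unit word. In the pair, that word is followed after 2 bases by gac, which differs from a GAA unit only in its last base. HSPA6 was picked by a rule (inducible, lower beyond 1.5-fold, with 3 units), and the pair was added after its values had been seen. The sequences are read 5′ to 3′ from the plus strand at chr1:161524290-161524539, chr6:31815293-31815463 and chr6:31827488-31827734 and stop before the annotated transcript. Capitals mark every 2-unit word.
HSPA6: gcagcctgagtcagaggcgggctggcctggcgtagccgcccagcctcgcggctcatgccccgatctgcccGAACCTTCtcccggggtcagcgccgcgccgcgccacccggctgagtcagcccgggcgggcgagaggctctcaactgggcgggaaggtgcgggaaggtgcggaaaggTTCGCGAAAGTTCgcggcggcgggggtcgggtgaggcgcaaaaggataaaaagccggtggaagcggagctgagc
HSPA1A: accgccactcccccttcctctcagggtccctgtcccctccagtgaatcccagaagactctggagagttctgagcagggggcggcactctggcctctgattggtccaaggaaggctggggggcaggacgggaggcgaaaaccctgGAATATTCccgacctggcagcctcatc
HSPA1B: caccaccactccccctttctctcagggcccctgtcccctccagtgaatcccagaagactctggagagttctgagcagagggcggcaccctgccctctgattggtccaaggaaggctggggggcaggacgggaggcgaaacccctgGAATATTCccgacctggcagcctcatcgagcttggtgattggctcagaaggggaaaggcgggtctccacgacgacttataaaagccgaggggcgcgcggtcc

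In HSPA6 the 3 units began 74 bases before the start and another 2-unit word began 180 bases before it. In the pair the only word, GAATATTC in both, began 106 bases before the RefSeq start of HSPA1A and 105 bases before that of HSPA1B. Over the 250 bases before each start, 235 of 249 aligned bases of the pair were identical (94.4%). Having 3 units did not go with a direction among the 8 genes that held them: HSPA6 and HSPD1 were lower beyond 1.5-fold in the (R)-9b library, and HSP90AA1, HSP90AB1, HSPA8, DNAJB6, DNAJA1 and CHORDC1 were not, with log2 ratios from -0.24 in HSPA8 to 0.57 in CHORDC1. A 2-unit word was held by 6 of the 7 members lower beyond 1.5-fold that had a window. The same was true of 19 of all 36 members with a window and of 4417 of all 27305 genes. Whether the words go with the lower levels was not tested.

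**Figure D1:**
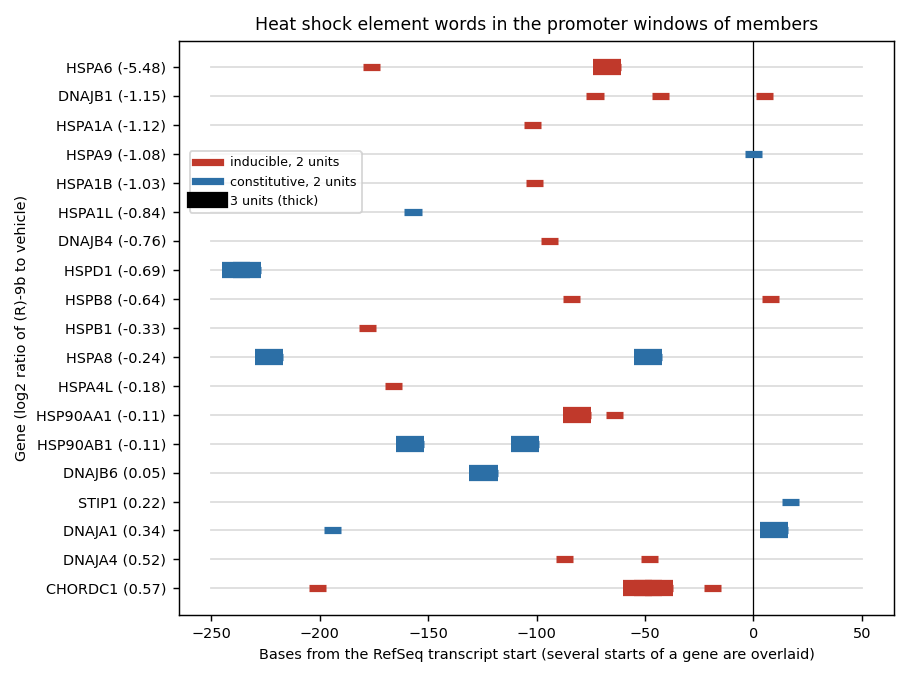
Position of heat shock element words in the promoter windows of the 19 members that hold one, in bases from the RefSeq transcript start on the horizontal axis, with genes ordered from top to bottom by their log2 ratio of (R)-9b to vehicle (in brackets); thin marks are 2 units, thick marks 3 units, red inducible and blue constitutive genes. Thick marks appear at the top (HSPA6, -5.48) and at the bottom (CHORDC1, 0.57).

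Ratios are (R)-9b over vehicle after TMM scaling, with an exact (Clopper-Pearson) 95% interval that covers counting error only, and a gene was called lower or higher where its whole interval lay beyond 1.5-fold. All 42 members passed the minimum of 10 counts over both libraries, and 8 of them (19.0%) were called lower and 0 higher, while 34 were not called. Of all 23446 genes tested, 7.74% were called lower and 8.71% higher. Among the 15154 genes with at least 122 counts, the number of the least counted member (DNAJA4), the shares were 8.12% and 8.04%. Without a fold limit, 24 members had an interval wholly below a ratio of 1, 13 wholly above it and 5 across it, where 31.1% of all genes tested lay below and 29.8% above. Counts of this kind, here and below, depend on the scaling and were not repeated under the alternatives. The intervals behind them are too narrow where a read pair gave 2 counts. The members' median log2 ratio was -0.12, beside -0.0049 over all genes tested.

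**Figure D2:**
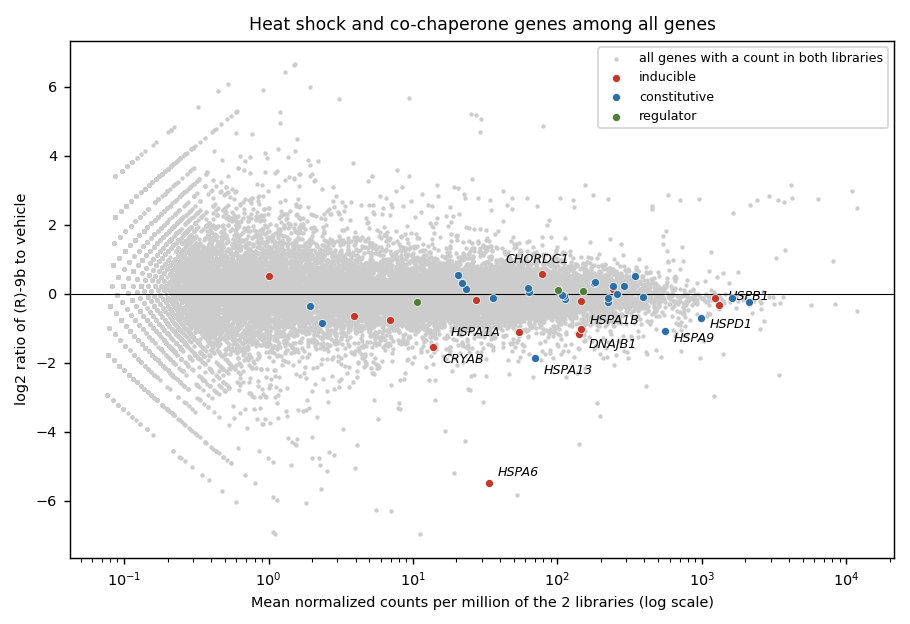
Log2 ratio of (R)-9b to vehicle (vertical axis) against the mean normalized CPM of the 2 libraries (horizontal axis, log scale) for all genes with a count in both libraries (grey) and for the 42 members (red inducible, blue constitutive, green regulators). HSPA6 at -5.48 stands far below the other members. Of the abundant members at the right, HSPA9 (-1.08) and HSPD1 (-0.69) lie lowest. HSPB1 (-0.33) and HSPA8 (-0.24) lie less far below 0, and HSP90AA1 and HSP90AB1 (both -0.11) lie near it.

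The inducible class was lower in the (R)-9b library at its median and uneven in its members. Of its 14 genes, 5 were called lower, 0 higher and 9 not, with a median log2 ratio of -0.48, whereas 3 of the 25 constitutive genes were called lower and 0 higher, with a median of -0.05 (0.048 with estimated transcript counts in place of gene counts). The share called lower was 35.7% of the inducible and 12% of the constitutive genes, beside 7.74% of all genes tested. HSPA1A and HSPA1B, which the reads cannot separate well, count as 2 called genes in the inducible share and in that of all members. No setting counted the pair as 1 gene. The class medians differed by -0.43, which became -0.28 without HSPA6 (inducible median -0.33). With HSPD1, HSPE1, DNAJA1, STIP1 and AHSA1, genes that heat also raises in some cells, counted as inducible instead, the medians were -0.22 and -0.10 and the difference was -0.12. No test of this difference is possible with 1 library per condition.

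Summed normalized CPM (counts relative to the scaled library total) of the inducible class were 3797 with vehicle and 3097 with (R)-9b (log2 ratio -0.29, beside the class median of -0.48), and those of the constitutive class 8839 and 7622 (-0.21). The inducible sum lay nearer 0 than the median here, but farther from 0 with estimated transcript counts (-0.57 against -0.46) and with the wider inducible class (-0.29 against -0.22). In the estimated transcript counts HSP90AA1 had only 0.0203 times its vehicle gene count per read pair, and HSPA1B had 4.72 times. The genes therefore weigh differently in that sum, and it is not comparable with the gene-count sum. The inducible sum was held mostly by HSPB1 and HSP90AA1, which made up 38.6% and 33.9% of it under vehicle and 37.6% and 38.4% under (R)-9b. HSPA6 made up 1.73% and 0.0475%.

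**Figure D3:**
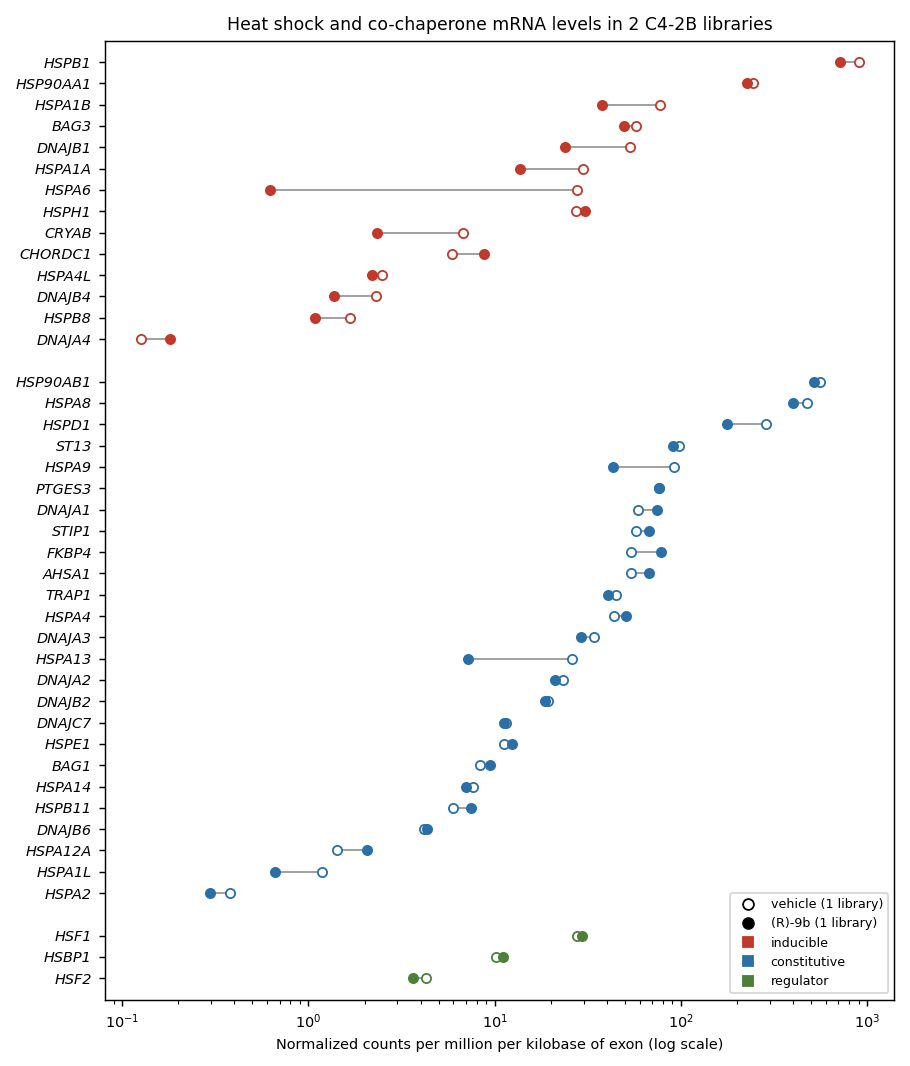
Normalized CPM per kilobase of exon (horizontal axis, log scale) of each member in the vehicle library (open circles) and the (R)-9b library (filled circles), grouped as inducible (red), constitutive (blue) and regulator (green) and ordered by the vehicle level. The grey lines joining the 2 libraries are long for HSPA6 and HSPA13 and short for most of the other members.

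Among the inducible HSP70 genes, all 3 that encode the stress-induced HSP70 proteins were lower in the (R)-9b library. HSPA6, the strictly inducible HSP70 (HSP70B′), whose single exon lies at chr1:161524540-161526910, had 4369 counts with vehicle and 83 with (R)-9b, or 65.6 and 1.47 normalized CPM. That is a level 44.6-fold lower (interval 35.9 to 56.2, log2 ratio -5.48), and its rank per kilobase of exon among the 42 members went from 21 to 40. HSPA6 was thus a mid-level member in the vehicle library and among the 3 least expressed in the other. Of the 150-base windows along its transcript, 15.2% also occur in its pseudogene HSPA7, which had 330 and 8 counts (log2 ratio -5.13, interval -6.35 to -4.13).

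HSPA1A, which encodes the major stress-induced HSP70, had 4936 and 1926 counts (log2 ratio -1.12, interval -1.20 to -1.04). HSPA1B, whose protein is nearly the same, had 12972 and 5372 (-1.03, interval -1.08 to -0.99). The pair cannot be separated well with reads of this length: 63.2% of the 150-base windows of HSPA1A occur in HSPA1B, and 66.0% of those of HSPA1B in HSPA1A. Reads that match both genes equally well are not in counts of unique reads. Another gene, AL671762.1, overlaps 36.5% of the exon bases of HSPA1B on the same strand and holds 32.5% of its windows. Together, 70.0% of the windows of HSPA1B occur in another gene. Summed over the pair, the level was 269 normalized CPM with vehicle and 129 with (R)-9b, 2.08-fold lower. In the deposited transcript table the pair summed to 30879 and 12351 estimated counts, a log2 ratio of -1.07 (interval -1.10 to -1.04), of which 30586 and 12231 were assigned to HSPA1B, so the ratio of the pair was nearly the same in both tables while the division between its members was not.

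The other inducible members of the HSP70 and HSP110 family were not called. HSPA4L, an HSP110 protein that serves as a nucleotide exchange factor for HSP70, had 1923 and 1438 counts (log2 ratio -0.18), and HSPH1, the main stress-induced HSP110, had 15284 and 14374 (0.15, interval 0.12 to 0.18). HSPH1 thus lay on the other side of a ratio of 1 from the HSP70 genes it acts with.

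Of the inducible HSP40 genes, DNAJB1, the partner that delivers clients to HSP70 and stimulates its ATPase, was lower, with 13022 counts with vehicle and 4973 with (R)-9b. Its level was 2.22-fold lower (log2 ratio -1.15, interval -1.20 to -1.10), close to that of HSPA1A and HSPA1B. DNAJB4, a related HSP40, had 582 and 291 counts (-0.76, interval -0.97 to -0.56), so the upper end of its interval lay just short of 1.5-fold (0.58 on the log2 scale) and it was not called. DNAJA4 had 55 and 67 counts, the fewest of all members, and its interval ran from -0.01 to 1.06.

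The small heat shock proteins bind unfolding proteins without ATP and keep them soluble. CRYAB (αB-crystallin) had 1369 counts with vehicle and 398 with (R)-9b, 2.92-fold lower (log2 ratio -1.54, interval -1.71 to -1.38), the largest inducible difference after HSPA6. On the opposite strand HSPB2 overlaps 20.6% of the exon bases of CRYAB, but HSPB2 itself had 0 counts in both libraries. HSPB8, which works with BAG3 in chaperone-assisted autophagy, had 319 and 174 counts (-0.64, interval -0.91 to -0.37) and was not called. HSPB1 (HSP27) was the most abundant member per kilobase of exon in both libraries, with 97682 and 65785 counts, or 1467 and 1165 normalized CPM, and a log2 ratio of -0.33 (interval -0.35 to -0.32). Its interval was narrow and wholly below 0, yet it did not reach 1.5-fold.

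HSP90AA1, the inducible cytosolic HSP90, had 85633 and 67101 counts and a log2 ratio of -0.11. BAG3, a nucleotide exchange factor of HSP70 and a widely used HSF1 target, had 10501 and 7642 counts (-0.22, interval -0.26 to -0.18). CHORDC1 (morgana), an HSP90 co-chaperone, was the member with the highest ratio, with 4168 and 5260 counts and a log2 ratio of 0.57 (interval 0.51 to 0.63), a 1.49-fold higher level that fell just short of 1.5-fold. The inducible class therefore ran from HSPA6 at -5.48 to CHORDC1 at 0.57, with 11 intervals below a ratio of 1, 2 above it and 1 across it.

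**Figure D4:**
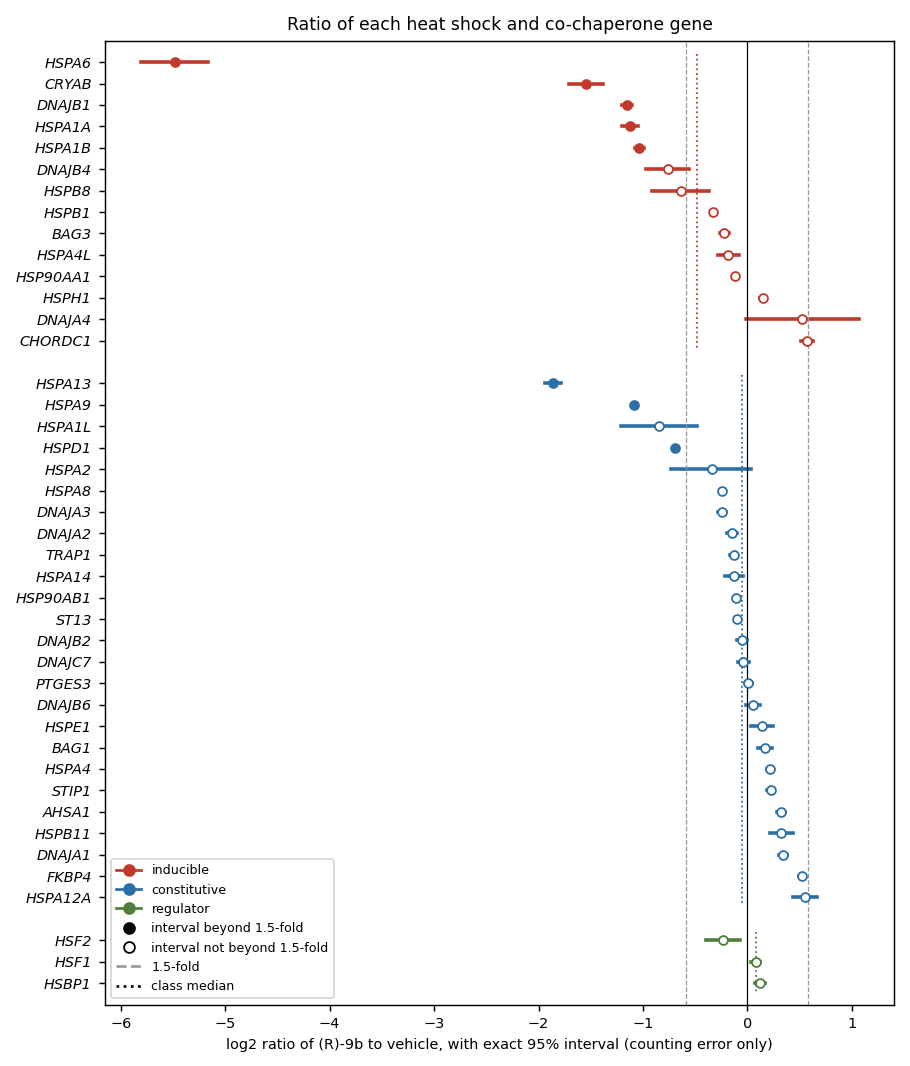
Log2 ratio of (R)-9b to vehicle for each member with its exact 95% interval (horizontal bars, counting error only), by class; filled points have the whole interval beyond 1.5-fold (dashed lines), and dotted lines are class medians. Filled points are seen in the inducible (5) and constitutive (3) classes and all lie to the left, and the class medians are -0.48, -0.05 and 0.08.

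In the constitutive class, the 3 genes called lower all encode proteins outside the cytosol. HSPA13 (STCH), an HSP70-like protein of the endoplasmic reticulum, had 7290 counts with vehicle and 1707 with (R)-9b, 3.62-fold lower (log2 ratio -1.86, interval -1.93 to -1.78). HSPA9 (mortalin), the mitochondrial HSP70 that helps to pull proteins through the inner membrane, had 50273 and 20144 counts and was 2.12-fold lower (-1.08, interval -1.11 to -1.06). HSPD1 (HSP60), the mitochondrial chaperonin, had 80563 and 42395 counts and was 1.61-fold lower (-0.69, interval -0.71 to -0.67).

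The other 3 mitochondrial members did not go with HSPA9 and HSPD1 in size. HSPE1 (HSP10), the co-chaperonin of HSPD1, had 1468 and 1374 counts and a log2 ratio of 0.14 (interval 0.04 to 0.25), and HSPD1 and HSPE1 are neighbours on chromosome 2 that are transcribed in opposite directions. HSPE1 shares 14.2% of its exon bases with HSPD1 on the other strand and 9.71% with the readthrough gene HSPE1-MOB4 on its own strand. Reads that fall in 2 genes are not in the counts of unambiguous reads, and the strand setting of the counting is not given in the sources used here. DNAJA3 (-0.24), the mitochondrial HSP40, and TRAP1 (-0.13), the mitochondrial HSP90, were not called. The 5 mitochondrial members had a median of -0.24, in libraries whose mitochondrially encoded RNA was 1.49% and 9.54% of the counts, and the part of that difference in these values was not tested.

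None of the 18 constitutive members of the cytosol and nucleus was called, and their median log2 ratio was -0.02, whose sign turns with upper-quartile scaling, which adds 0.04 to every log2 ratio. They had 7 intervals below a ratio of 1, 7 above it and 4 across it. HSPA8 (HSC70), the constitutive HSP70 and the member with most counts, had 153178 and 109639 counts, or 2301 and 1942 normalized CPM (log2 ratio -0.24, interval -0.26 to -0.23). HSP90AB1, the constitutive HSP90, had 111288 and 87246 counts (-0.11, interval -0.13 to -0.10) in the gene table. Its log2 ratio in the transcript table was 0.75, but there HSP90AB1 had only 457 and 645 estimated counts, 0.00821 times its vehicle gene count per read pair. Both cytosolic HSP90 genes thus had gene-count log2 ratios of -0.11.

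The 5 members with most counts, HSPA8, HSPB1, HSP90AB1, HSP90AA1 and HSPD1, summed to 7935 normalized CPM with vehicle and 6591 with (R)-9b, and HSPD1 was the only member of these 5 to be called. The rest of the constitutive HSP70 and HSP110 genes (HSPA1L, HSPA2, HSPA4, HSPA12A and HSPA14) ran from -0.84 in HSPA1L to 0.55 in HSPA12A. HSPA1L, expressed mainly in the testis and the neighbour of HSPA1A on chromosome 6, had 201 and 95 counts and an interval from -1.21 to -0.48, so its few counts left it uncalled. HSPA12A, a distant relative of HSP70, had 1116 and 1385 counts and an interval of 0.43 to 0.66. The constitutive HSP40 genes of the cytosol (DNAJA1, DNAJA2, DNAJB2, DNAJB6 and DNAJC7) lay between -0.15 and 0.34.

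The co-chaperones that move clients through the HSP70 and HSP90 cycle were not called in either direction. Of the 8 co-chaperone members, BAG3 and CHORDC1 included, 5 had an interval above a ratio of 1, 2 below it and 1 across it, and their median was 0.20. The 6 constitutive genes among them are ST13 (HIP) and BAG1, which act on the nucleotide cycle of HSP70, STIP1 (HOP), which joins HSP70 to HSP90, AHSA1, which stimulates the HSP90 ATPase, PTGES3 (p23), which stabilizes the closed HSP90, and FKBP4 (FKBP52), an immunophilin that acts on steroid receptor complexes. ST13 was the lowest of them at -0.10. FKBP4 was the highest, with 18678 and 22753 counts and a log2 ratio of 0.52 (interval 0.49 to 0.55).

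By family, the 13 HSP70 and HSP110 genes had 5 calls and a median of -0.34, the 9 HSP40 genes 1 call and -0.05, the 4 small heat shock genes 1 call and -0.48, the mitochondrial chaperonin HSPD1 with HSPE1 1 call, and the 3 HSP90 genes 0 calls and -0.11. All these calls were lower, in 38.5% of the HSP70 and HSP110 genes and 11.1% of the HSP40 genes, beside 7.74% of all genes tested. The poorly separated pair HSPA1A and HSPA1B counts as 2 of the HSP70 and HSP110 calls. The other families named here have at most 4 genes. HSPB11, listed with the small heat shock genes by its name although its product serves intraflagellar transport, had a log2 ratio of 0.33.

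None of the 3 regulators was called. HSF1, the master transcription factor of the response, had 9815 counts with vehicle and 8785 with (R)-9b, a log2 ratio of 0.08 (interval 0.04 to 0.12). HSF2, which can pair with HSF1, had 769 and 555 (-0.23, interval -0.39 to -0.07), and HSBP1, which binds HSF1 trimers and dampens them, had 6464 and 5959 (0.12, interval 0.07 to 0.17). HSF1 is controlled mainly by its release from chaperones, its trimers and its phosphorylation, none of which is read by mRNA counts.

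Other genes of the chaperone network were taken from 5 lists drawn up by function, with earlier results of these data known. Of 10 other HSF1 targets with enough counts, 3 (30%) were called lower and 0 higher, beside 7.74% and 8.71% of all genes tested. Their median log2 ratio was -0.39, beside the -0.33 of the inducible members without HSPA6. The 3 were IER5, an immediate early gene that promotes HSF1 activity, with 1258 and 519 counts (-1.04, interval -1.19 to -0.89), DEDD2 (-0.93) and ZFAND2A (AIRAP, -0.93), and RANGAP1 was the highest at 0.25. Another gene of that list, HSPB2, had 0 counts in both libraries.

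The CCT chaperonin, which folds actin and tubulin, had 0 of 8 subunits called and a median of 0.10, from CCT4 at -0.23 to CCT6A at 0.37. Prefoldin, which hands chains to CCT, had 0 of 6 called and a median of 0.07, from PFDN2 (-0.21) to PFDN6 (0.22). Of 17 other HSP90 co-chaperones, 2 were called lower, the folliculin partners FNIP1 (-0.84) and FNIP2 (-0.96), and 0 higher, with a median of -0.01 and TTC4 highest at 0.58. Of 22 other HSP70 co-chaperones, 2 were called lower, DNAJB5 with 1282 and 518 counts (-1.07, interval -1.22 to -0.92) and DNAJC18 (-1.06), and 0 higher, with a median of -0.04 and DNAJC11 highest at 0.38. The share called lower was 11.8% of the other HSP90 and 9.09% of the other HSP70 co-chaperones, near the 7.74% of all genes tested. None of the 5 lists had a gene called higher, beside 8.71% of all genes tested.

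**Figure D5:**
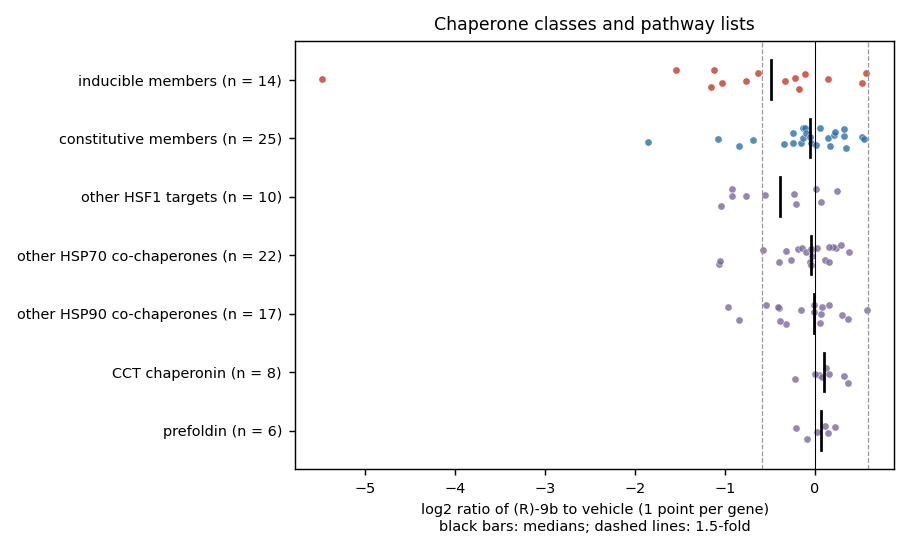
Log2 ratio of (R)-9b to vehicle (horizontal axis) for each gene of the inducible and constitutive members and of 5 lists of other chaperone network genes, 1 point per gene; black bars are medians and dashed lines 1.5-fold. The medians lie at -0.48 for inducible members and -0.39 for other HSF1 targets, and between -0.05 and 0.10 for the other rows.

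The transcript table gave nearly the same ratios for most members and a different transcript mix for a few. Estimated counts summed per gene gave a log2 ratio within 0.1 of the gene counts for 33 of the 42 members and one that differed by over 0.3 for 2, HSP90AB1 and TRAP1 (-0.52 against -0.13). Both are thinly covered there, TRAP1 at 0.148 times its vehicle gene count per read pair against a median of 0.752 over members. HSP90AA1 is thinly covered too, at 0.0203 times. HSPA6 had 2068 and 34.5 estimated counts (-5.63).

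Of 26 members with at least 2 transcripts holding 10% or more of the gene's estimated counts, 7 had a transcript whose share moved by 10 percentage points or more. In CRYAB, the transcript CRYAB-217 went from 48.9% of the gene in the vehicle library to 3.96% in the (R)-9b library (258 and 5.58 estimated counts), and CRYAB-207 from 30.0% to 77.5% (158 and 109 estimated counts). The lower CRYAB level was thus carried mostly by CRYAB-217, for which the log2 ratio was -5.18 (interval -6.64 to -4.03), against -0.29 (interval -0.65 to 0.08) for CRYAB-207. HSPB11-201 went from 46.7% to 29.1%, HSPA12A-201 from 28.5% to 9.73% and TRAP1-216 from 22.0% to 0%, the last from 253 estimated counts. The shares of HSPA1A, DNAJB4 and DNAJA4 moved too, but those of HSPA1A rest on 293 and 120 estimated counts that the near-identical HSPA1B shares, the DNAJB4 transcript had 16.1 and 21.6 estimated counts, and those of DNAJA4 had at most 7. How estimated counts were divided between such transcripts has its own error, which is not given in the table.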

How the data were processed

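RNA sequencing of 2 C4-2B libraries was analysed, grouped by the treatment named in the sample labels. The members, their classes and the gene lists were chosen with earlier results of these data known.

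Per the paper, paired reads were aligned with STAR to an Ensembl primary assembly. The submitters' processing notes list STAR 2.5.1a, featureCounts 1.4.6-p5, Salmon 0.8.2, edgeR, limma and hg38 without roles, and the STAR version differs from the paper's. The authors deposited gene counts of uniquely aligned unambiguous reads, without normalization. Most low counts are even (72.2% of those from 1 to 20 in the vehicle library and 70.3% in the other), so a read pair often gave 2 counts, and intervals on counts are then too narrow. The deposited CPM equal the count over the library total to within 0.00027 counts, and the authors' moderated log2 CPM are of undescribed moderation. Estimated counts per transcript were deposited too, from a tool not named in the paper, and were summed per symbol because HSPA1A and HSPA1B have 5 gene IDs each there. The transcript CPM and log2 tables were not used. Repeated lines of a gene (200 of 60871) were dropped, and of the 2 IDs of HSPA14 the one with more counts was kept. The kept ID had 2506 and 1945 counts (log2 ratio -0.13). The other had 737 and 683, a ratio above 1 after scaling, so the 2 IDs differ in direction.

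Gene counts were scaled with TMM (edgeR 4.0.16, R 4.3.3; factors 1.02 and 0.979), and exact 95% intervals of each ratio were computed with scipy 1.17.1, numpy 2.4.6 and pandas 2.3.3 under Python 3.11.15; figures used matplotlib 3.10.9. The totals of 65207444 and 57653965 counts make intervals narrow for abundant genes, and they cover counting error only. No replicate model could be fitted. Exon lengths, overlaps and shared 150-base windows came from GENCODE 29 (GRCh38), not the authors' release, and promoters from RefSeq. The interval code was tested on simulated counts.

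Values are given for every inducible member, every member called beyond 1.5-fold, the 3 regulators and the 5 members with most counts, and for the highest and lowest of the remaining members of a group and of each list. TRAP1 and HSPE1 and the values of HSPB11, DNAJA3, HSPA7 and HSPB2 were named after their values had been seen, as was the marker KRT18. Some of the markers checked are not reported here by name. The alternatives were scaling by library totals, DESeq2 1.42.0 size factors, the upper quartile or TMM without mitochondrially encoded genes, halved counts, estimated transcript counts, the moderated log2 CPM, a 2-fold limit, the ratio without its interval, minimum counts of 1 and 50, a wider inducible class and, added after seeing the data, leaving out HSPA6.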

Additional observations from a re-analysis of the deposited data

How the results depend on the processing

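The count of members called lower was 8 in every setting that changed only the scaling, the counts used or the minimum count, except 9 with library totals, and it was 6 with a 2-fold limit, 11 with the ratio without its interval and 7 without HSPA6. The count called higher was 0 in all of these. The inducible median log2 ratio of -0.48 became -0.22 with the wider inducible class and -0.33 without HSPA6, and under the other settings it stayed between -0.54 and -0.45. The constitutive median of -0.05 became -0.11 with library totals and with the moderated log2 CPM, -0.10 with the wider inducible class and 0.048 with estimated transcript counts. The difference of the medians, -0.43, became -0.12 with the wider inducible class and -0.28 without HSPA6. The summed inducible level had a log2 ratio of -0.29, which ranged from -0.57 with estimated transcript counts, where HSP90AA1 is thinly covered, to -0.26 with the upper quartile. No called member changed sign. Among uncalled members, estimated transcript counts changed the sign of HSP90AB1, DNAJB2 and DNAJC7, and library totals and the moderated log2 CPM that of DNAJB6 and PTGES3, of which PTGES3 also changed with DESeq2 size factors. Library totals shift every log2 ratio by -0.06, the upper quartile by 0.04 and DESeq2 size factors by -0.02. No paired analysis was possible because there was 1 library per condition, and no replicate could be left out. Counting error kept DNAJB4, HSPB8 and HSPA1L, which had 873, 493 and 296 counts over both libraries, from being called, since their ratios but not their whole intervals lay beyond 1.5-fold.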
